A study of Mus musculus with 2 samples.

Results

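Open chromatin sites along mouse chromosome 2 were examined by position in AB22, a malignant mesothelioma cell line of the mouse, in 2 lists, from cells with a control hairpin (shCTRL) and from cells in which Hmgb1 was silenced (shHMGB1). The sites are all peaks and all nucleosome-free regions that the deposited ATAC-seq lists place on the chromosome. Rows with the same start and end were merged to 1 peak, and each site was put in 1 of 183 fixed windows of 1 Mb counted from position 0. The members were therefore chosen by measured values, since a peak is listed only if its pileup of fragments passed the caller's limit. Chromosome 2 held 15273 of the 104336 shCTRL peaks and 9794 of the 92282 shHMGB1 peaks. It also held 1436 of 16275 and 1231 of 14634 nucleosome-free regions.

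ATAC-seq uses the transposase Tn5 to cut accessible DNA and to leave sequencing adapters there. Both lines carried a lentiviral pTRIPZ hairpin construct, delivered at a multiplicity of infection of 20 and selected with 4 μg/mL puromycin. Hairpins were induced with 1 μM doxycycline, and cells were used 7 to 10 days later, after culture at 37 °C with 5% oxygen as the label has it. No radiation dose was given for either library. Each condition had 1 library, so differences between the lists have no replicate check and no test was made. Intervals printed here are 95% intervals that cover counting error, and those of medians treat peaks as independent. Accessibility of the silenced gene cannot check a hairpin, which acts on the RNA.

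Accessible sites in mammalian cells lie at promoters, where nucleosomes are kept off the start of transcription, and at enhancers. Most promoters open in many cell types sit in CpG islands, which are rich in the dinucleotide CG and in the GC box bound by SP factors. The silenced gene encodes HMGB1, a plentiful DNA-bending protein of chromatin. Mouse chromosome 2 carries gene-dense stretches, the HoxD cluster of body-plan genes, large arrays of olfactory receptor genes and a far end rich in imprinted and growth-related genes.

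The promoters of 7 members show the range of sites met along the chromosome, and were picked after their values were seen. Each line gives the 250 bases before a RefSeq start site of GRCm38.p6, read from 5′ to 3′ on the gene's strand. Chd6 (chr2:161109087-161109336, minus strand), Tasp1 (chr2:140066806-140067055, minus strand) and Scai (chr2:39190731-39190980, minus strand) carried the tallest promoter summits seen in both libraries, ranked by the sum of both pileups, the first pair within and the last before the crowded far end described below. Their pileups were 338 and 348 fragments at Chd6, 303 and 302 at Tasp1 and 233 and 211 at Scai, in shCTRL and shHMGB1. Nol4l (chr2:153529972-153530221, minus strand) and Acss1 (chr2:150668241-150668490, minus strand) held the tallest promoter peaks of shCTRL without a counterpart (27 and 21 fragments), and Zeb2 (chr2:45113280-45113529, minus strand) that of shHMGB1 (15). This Zeb2 start lies inside the annotated gene. The gene as a whole was open in both libraries, with end pileups of 11 and 11 and up to 59 and 58 fragments inside or within 1 kb of it. Olfr338 (chr2:36376528-36376777, plus strand) is the first olfactory receptor gene by position and had no summit. Capitals mark the GC box GGGCGG and the CCAAT box CCAAT on either strand.
Chd6: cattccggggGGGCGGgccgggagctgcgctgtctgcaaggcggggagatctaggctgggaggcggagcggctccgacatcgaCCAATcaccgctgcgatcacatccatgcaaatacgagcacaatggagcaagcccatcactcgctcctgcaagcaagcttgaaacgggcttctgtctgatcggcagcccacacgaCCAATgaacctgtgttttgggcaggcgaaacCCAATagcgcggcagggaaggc
Tasp1: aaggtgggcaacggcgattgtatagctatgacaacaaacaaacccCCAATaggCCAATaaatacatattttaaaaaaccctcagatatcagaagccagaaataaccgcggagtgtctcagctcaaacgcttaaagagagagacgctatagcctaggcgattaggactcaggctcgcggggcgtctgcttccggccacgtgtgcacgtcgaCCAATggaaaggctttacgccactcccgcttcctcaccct
Scai: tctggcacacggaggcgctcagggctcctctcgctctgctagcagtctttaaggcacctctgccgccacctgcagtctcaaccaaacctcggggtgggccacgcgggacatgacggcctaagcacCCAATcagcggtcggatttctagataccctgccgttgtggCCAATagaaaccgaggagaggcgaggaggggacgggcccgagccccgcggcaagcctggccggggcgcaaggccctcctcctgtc
Nol4l: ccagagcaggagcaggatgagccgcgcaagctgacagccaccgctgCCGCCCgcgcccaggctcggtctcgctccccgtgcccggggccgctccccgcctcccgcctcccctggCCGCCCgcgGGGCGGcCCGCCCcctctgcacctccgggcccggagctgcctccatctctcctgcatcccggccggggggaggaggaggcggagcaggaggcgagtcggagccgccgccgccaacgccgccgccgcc
Acss1: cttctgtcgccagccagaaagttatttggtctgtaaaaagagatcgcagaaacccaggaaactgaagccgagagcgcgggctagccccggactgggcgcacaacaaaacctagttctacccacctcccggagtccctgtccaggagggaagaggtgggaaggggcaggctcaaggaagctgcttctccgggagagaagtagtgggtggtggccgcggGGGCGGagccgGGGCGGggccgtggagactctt
Zeb2: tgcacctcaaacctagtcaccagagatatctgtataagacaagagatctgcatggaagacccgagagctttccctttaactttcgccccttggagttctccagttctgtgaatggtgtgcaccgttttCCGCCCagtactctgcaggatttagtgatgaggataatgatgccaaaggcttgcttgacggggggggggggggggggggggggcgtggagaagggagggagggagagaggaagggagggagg
Olfr338: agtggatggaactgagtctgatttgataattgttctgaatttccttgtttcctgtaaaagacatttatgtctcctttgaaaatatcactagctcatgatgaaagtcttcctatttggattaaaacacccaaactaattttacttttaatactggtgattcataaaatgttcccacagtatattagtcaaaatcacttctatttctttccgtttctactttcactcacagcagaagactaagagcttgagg
Upstream of Chd6 1 GC box and 3 CCAAT boxes were found, upstream of Tasp1 3 and of Scai 2 CCAAT boxes but no GC box, and upstream of Nol4l 4, of Acss1 2 and of Zeb2 1 GC box. Olfr338 held neither. The 250 bases held 19 CG dinucleotides at Chd6, 32 at Nol4l, 6 at Zeb2 and 1 at Olfr338.

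The RefSeq table gave 1868 promoter windows of 300 bases (250 before to 50 after a start) for 1544 of the 1782 coding genes. In 607 of them both libraries had a summit, and in 1038 neither had. Windows with a summit in both held a median of 23 CG dinucleotides and 62.3% G or C, against 5 and 49.7% in those without. The GC box (GGGCGG, both strands, overlapping matches allowed) was found in 70.0% of the former and 25.4% of the latter, beside 46.2% of all 21262 promoter windows of the genome. CCAAT was found in 41.8% and 35.1%, beside 38.2% over the genome, and the TATA box TATAAA in 3.95% and 20.9%, beside 12.6%. A match of these letters is a description of the sequence and not a binding site.

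**Figure D1:**
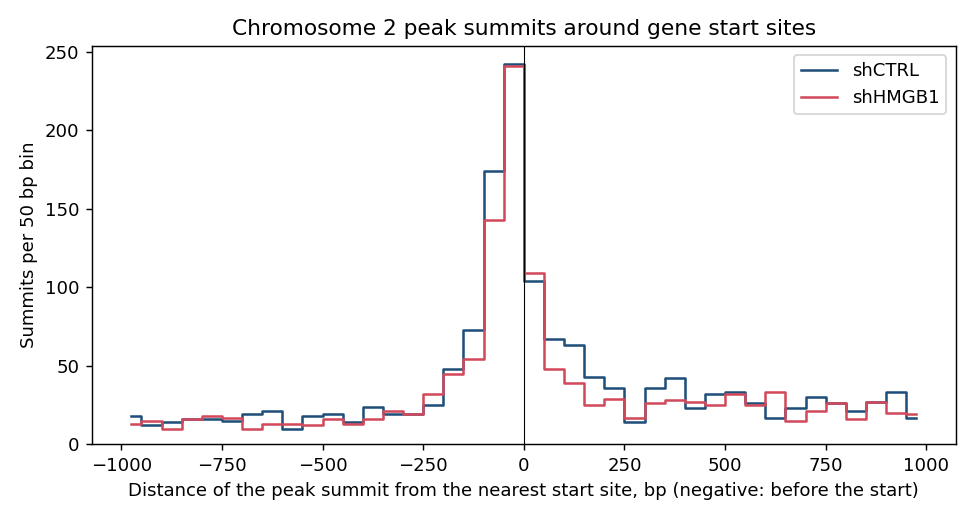
Peak summits of chromosome 2 by distance from the nearest RefSeq start site (x axis, bp; negative values lie before the start) in bins of 50 bp (y axis, summits per bin), with 1 line per library. The bin just before the start held the most, 242 summits in shCTRL and 241 in shHMGB1.

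Around start sites the lists were closer in number than over the whole chromosome, as the plot of summits by distance from the start shows. Within 1000 bp of a start lay 1529 shCTRL summits, 10.0% of the peaks, and 1344 shHMGB1 summits, 13.7%. Their median position from the start was -14 bp in both libraries. Beyond 131 Mb these shares were 5.94% and 9.37%, against 18.9% and 17.4% in the middle of the chromosome. A smaller part of the peaks of the far end than of the middle lay near starts, in both libraries.

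Peaks were spread unevenly over the chromosome. The median window held 38 shCTRL peaks and 41 shHMGB1 peaks, and the fullest 611 and 253. In 12 windows no peak was listed in either library. Windows rich in peaks in shCTRL were also rich in shHMGB1, with a Spearman correlation of 0.965 over 183 windows, which share the sequence and its mappability. The number of starts of coding genes per window followed the peaks less closely, at 0.541 in shCTRL and 0.545 in shHMGB1.

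**Figure D2:**
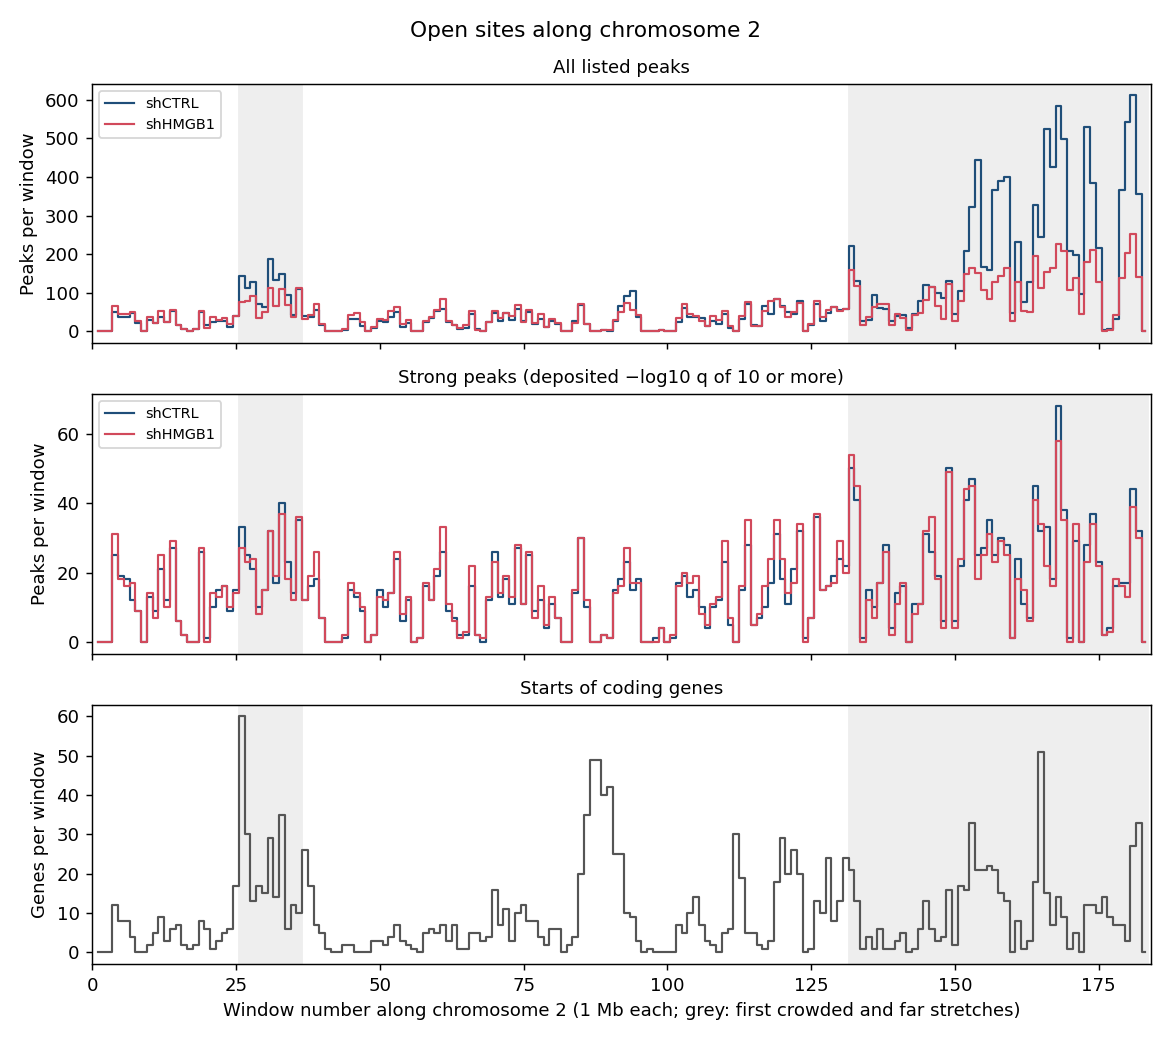
Peaks per window of 1 Mb in each library (top: all listed peaks; middle: strong peaks, whose deposited −log10 q reaches 10) and starts of coding genes per window (bottom), against the window number along chromosome 2; grey marks the crowded windows 26 to 36 and those from number 132. In the top panel the shCTRL line rises to 611 and the shHMGB1 line to 253, while in the middle panel the lines lie close together.

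Windows with over 200 peaks in both libraries together were called crowded, and crowded windows at most 30 apart were joined, a rule chosen after the counts were seen. It divides the chromosome into 4 stretches, namely a front from 0 to 25 Mb, a first crowded stretch from 25 to 36 Mb, a middle from 36 to 131 Mb and a far stretch from 131 Mb to the end. The rule fixes that the counts step at these bounds, and single windows within a stretch can be low, as were those from 133 Mb (28 and 16 peaks), 138 Mb (26 and 16) and 141 Mb (10 and 4). Window 24 to 25 Mb held 40 peaks in each library and the next held 143 and 75. Window 35 to 36 Mb held 111 and 113, and the next 40 and 32. Window 130 to 131 Mb held 59 and 57, and the next 222 and 158. Because these boundaries follow the counts, the contrasts between stretches below describe the lists and support nothing further.

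The lists differed in the far stretch and, less so, in the first crowded one. The far stretch held 10660 shCTRL and 5251 shHMGB1 peaks, or 209 and 103 per Mb, a ratio of 2.03 (1.96 to 2.10). The first crowded stretch held 1236 and 839, a ratio of 1.47 (1.35 to 1.61). The direction was opposite elsewhere. The front held 587 and 679, a ratio of 0.865 (0.773 to 0.967), and the middle 2790 and 3025, a ratio of 0.922 (0.876 to 0.971). The far stretch thus held 98.7% of the difference of 5479 peaks between the lists on the chromosome. Over the whole chromosome the ratio was 1.56 (1.52 to 1.60), the highest of 21 chromosomes, followed by 1.36 on chromosome 4, and it was 1.08 over all other chromosomes together.

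Within the far stretch the excess was larger towards the end. The first run of 3 windows with over 300 peaks each began at 151 Mb. Before it, from 131 to 151 Mb, the lists held 1564 and 1249 peaks, a ratio of 1.25 (1.16 to 1.35). From 151 to 182 Mb the counts were 9096 and 4002, a ratio of 2.27 (2.19 to 2.36). The latter region carried 428 of the 552 coding genes of the far stretch.

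Of the 148 windows with 20 or more peaks over both libraries, 37 (25%) held at least 1.5 times as many peaks in shCTRL, against a share of 9.18 percent of such windows over the genome. Of these 37 windows 31 lay in the far stretch and 4 in the first crowded one, and the others were 19 to 20 Mb (17 and 8 peaks) and 93 to 94 Mb (104 and 55). In the opposite direction 6 windows (4.05%) passed 1.5 times, against 5.28 percent over the genome, a share near that background. All 6 lay in the front and the middle. Without regard to size, shHMGB1 held more peaks in 53 of 71 such windows of the middle, and shCTRL in 42 of 48 of the far stretch. With 1 height limit for both lists the windows past 1.5 times numbered 18 and 17, and among strong peaks 1 and 1.

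**Figure D3:**
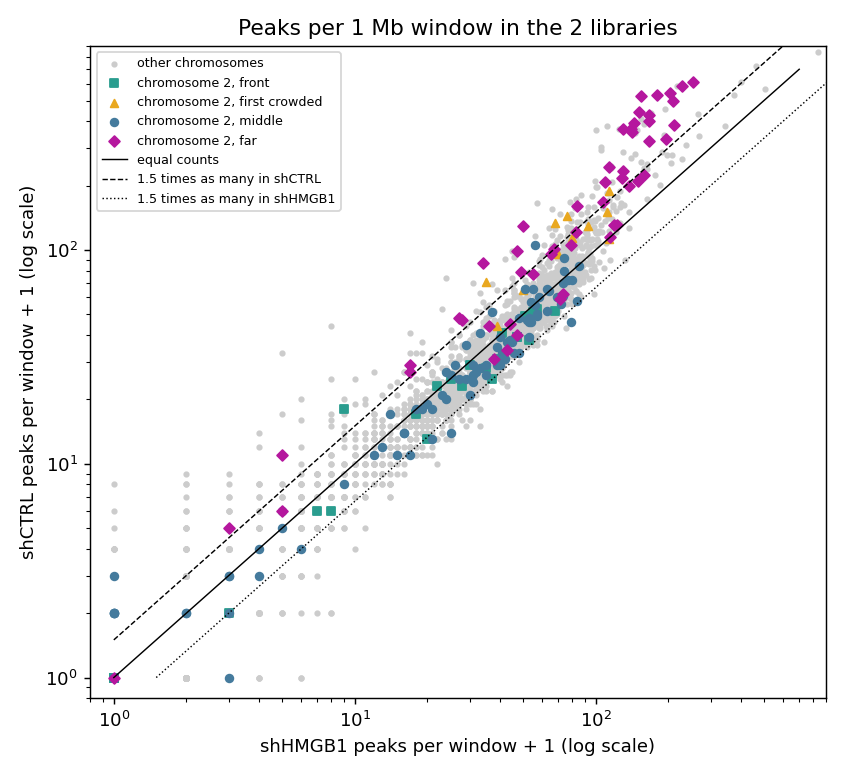
Peaks + 1 per window of 1 Mb in shHMGB1 (x axis) and shCTRL (y axis), both on log scales; grey points are windows of other chromosomes, coloured points those of chromosome 2 by stretch, and lines mark equal counts and 1.5 times as many in either library. Of the 37 chromosome 2 windows past the dashed line with 20 or more peaks, 31 belong to the far stretch.

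The fullest windows lay near the end of the chromosome. Window 180 to 181 Mb held 611 shCTRL and 253 shHMGB1 peaks, and its tallest gene-end peak was at Adrm1, a ubiquitin receptor gene of the proteasome, with pileups of 155 and 134 fragments. Window 167 to 168 Mb, with B4galt5, a galactosyltransferase gene, held 584 and 227. In window 179 to 180 Mb, with Taf4, a subunit gene of the general transcription factor TFIID, the counts were 543 and 203. Window 173 to 174 Mb, with Vapb, held 385 and 210.

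Among windows with at least 40 peaks over both libraries, the largest ratio was in window 165 to 166 Mb, around Elmo2, with 525 and 154 peaks, or 3.41. It was 2.96 in window 172 to 173 Mb (529 and 179), which holds the mitotic kinase gene Aurka, and 2.95 in window 153 to 154 Mb (443 and 150), which holds the microtubule-tip gene Mapre1. Aurka itself had end summits of 128 and 99 fragments. The windows of that size that leaned most to shHMGB1 were 117 to 118 Mb around Fam98b (45 and 78), 20 to 21 Mb around Arhgap21 (24 and 36) and 45 to 46 Mb (32 and 47), which holds no coding gene start.

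A gap broke the crowded end. Windows 175 to 176 and 176 to 177 Mb held 4 and 5 shCTRL peaks and 2 and 4 shHMGB1 peaks, between windows with 217 and 128 peaks before and 33 and 42 after them, and with 365 and 139 in the window from 178 Mb. They carry 23 coding genes, 5 of them named as zinc finger (Zfp) genes and 18 known by placeholder names. Of these 23 genes 21 had no end peak in either library.

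Windows with no peak at all formed 8 runs, of which the longest were 0 to 3 Mb and 40 to 43 Mb, with 0 and 1 coding gene. Whether reads can be placed in such windows was not examined. Values per Mb of the front count its empty windows from 0 to 3 Mb. Window 86 to 87 Mb had no peak although 49 coding genes start in it, each an olfactory receptor gene. These genes encode odorant receptors and are kept silent outside sensory neurons. Neither library listed a peak inside or within 1 kb of 286 of the chromosome's 287 olfactory receptor genes. The exception was Olfr1258, whose end pileups were 21 fragments in shCTRL and, in shHMGB1, 10 (4.80 to 18.4).

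Windows of like gene number were compared next. Among windows with over 15 coding gene starts, the median was 244 shCTRL and 140 shHMGB1 peaks in 13 windows of the far stretch. It was 40 and 40 in 21 windows of the front and middle, and 65.5 and 60 in 370 windows of other autosomes. With 6 to 15 genes the medians were 232 and 129 in the far stretch, 38 and 46 in front and middle, and 38 and 42 elsewhere. The far medians thus stood above those of other autosomes in both libraries. As the far stretch was bounded by its peak counts and the other autosomes were not, the rule favours this order and nothing is drawn from it. The highest counts on other autosomes were 838 and 838 with 6 to 15 genes, against 584 and 227 in the far stretch. With over 15 genes they were 727 and 503, against 611 and 253.

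The difference between the lists lay in weak peaks. The deposited −log10 q measures how far a summit stands above the expected pileup of its own library. In the far stretch 8039 shCTRL and 3446 shHMGB1 peaks had a value under 5, a ratio of 2.33 (2.24 to 2.43). At 5 to 10 the counts were 1458 and 708, a ratio of 2.06. At 10 to 20 they were 445 and 382, or 1.16, and at 20 or more 718 and 715, or 1.00 (0.904 to 1.11). The strongest sites of the far stretch were therefore near equal in number, and the far ratio fell with each class. On the other chromosomes the ratios were 1.25, 0.954, 1.02 and 0.906 in the same order. The far ratio stood above theirs in each class. At 10 to 20 (1.01 to 1.34) and at 20 or more, however, its interval held their value. On chromosome 4 the ratios were 1.42, 1.45, 1.36 and 0.995.

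**Figure D4:**
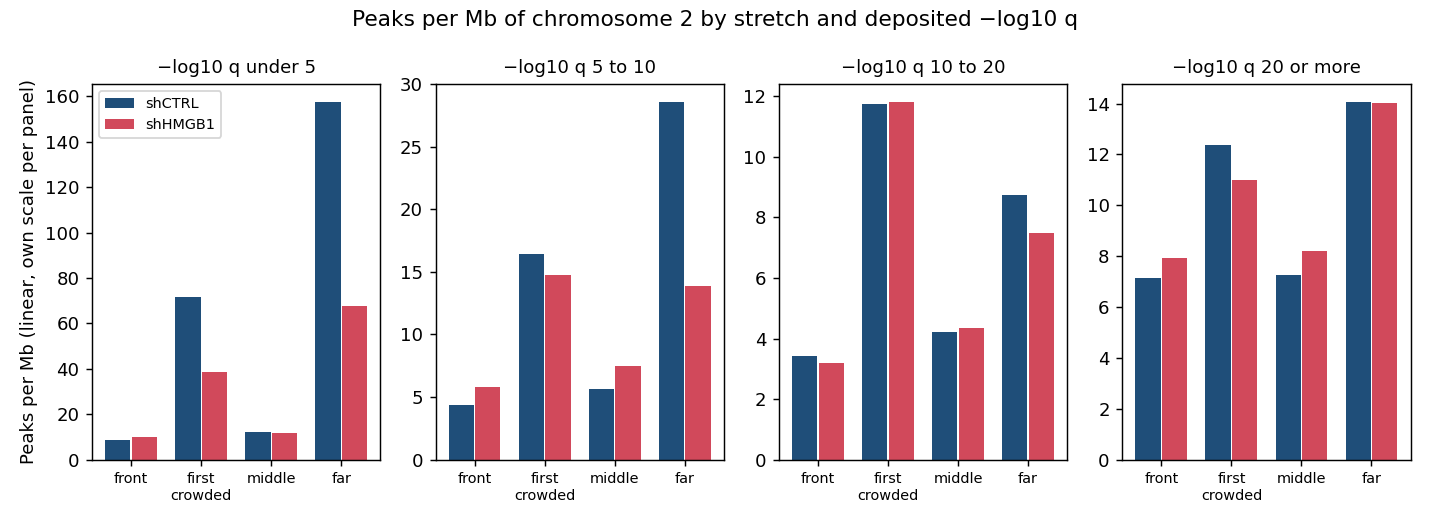
Peaks per Mb of each stretch of chromosome 2 (groups of bars) in shCTRL and shHMGB1, in 4 panels by deposited −log10 q, each with its own linear axis from 0. The far bars differ in the panel under 5 (158 against 67.6 per Mb) and are close at 20 or more.

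Strong peaks (−log10 q from 10 up) also crowded in the far stretch, in both libraries. They numbered 22.8 per Mb in shCTRL and 21.5 in shHMGB1 there, and 24.1 and 22.8 in the first crowded stretch. In the front they numbered 10.6 and 11.1 per Mb, and in the middle 11.4 and 12.5. Over the chromosome strong peaks were 2780 and 2817, a ratio of 0.987 (0.936 to 1.04). The order of the peak numbers thus rested on the threshold.

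The libraries had different listing limits. The lowest listed pileup was 10 fragments in shCTRL and 7 in shHMGB1, which are 3.58 and 4.15 times the expected pileup of 2.79 and 1.68 fragments. No summit under these limits was listed. With the same limit of 4.15 times the expected pileup in both lists, 7964 and 5251 peaks remained in the far stretch, a ratio of 1.52. It was 0.773 in the front, 1.13 in the first crowded stretch, 0.806 in the middle, 1.21 over the chromosome and 0.913 over the other chromosomes. Each library has a single expected pileup for the genome, so no correction for a local level of fragments entered these lists, and neither such a level nor the DNA copy number it depends on was measured here.

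Peaks of the far stretch lay close together and were narrow. The median distance between neighbouring summits was 1248 bp in shCTRL and 3274 bp in shHMGB1, against 6839 and 6125 bp in the middle. The median width was 139 and 140 bp in the far stretch and 206 and 225 bp in the middle. Peaks covered 4.52% of the far stretch in shCTRL and 2.57% in shHMGB1, and 0.927% and 1.06% of the middle. Gene ends, meaning up to 1 kb from either end of a coding gene, held 10.4% (9.84 to 11) of the far shCTRL peaks and 13.6% (12.6 to 14.5) of the far shHMGB1 peaks, against 21% and 19.2% in the middle.

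Most far peaks of shCTRL had no partner in the other list. Over the chromosome 40.5% (39.7 to 41.3) of shCTRL peaks overlapped a shHMGB1 peak by at least 1 bp, and 63.6% (62.7 to 64.6) of shHMGB1 peaks overlapped a shCTRL peak. The peaks without a counterpart, 9091 of 15273 and 3562 of 9794, compare with 39.9 percent of shCTRL peaks and 31 percent of shHMGB1 peaks over the genome. In the far stretch the shared parts were 28.4% (27.5 to 29.3) and 59.0% (57.6 to 60.3). In the middle they were 76.0% (74.4 to 77.6) and 69.2% (67.5 to 70.8), and in the front 81.9% and 68.6%.

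Sharing rose with height and was complete among tall sites. At a shCTRL pileup of 13 to 15 fragments 18.6% (17.4 to 19.9) of the far peaks were shared, against 61.8% (58.0 to 65.5) in front and middle and 43.9% on other chromosomes. At 21 to 30 fragments the shares were 92.6%, 99.0% and 97.8%. Of 754 far shCTRL peaks above 30 fragments all were shared, as were all 893 in front and middle. In shHMGB1 peaks of 13 to 15 fragments the far share was 85.7% (81.6 to 89.1) and that of front and middle 72.8% (68.3 to 76.9).

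The tallest peaks of 1 list were of modest height. In shCTRL they lay in Sulf2 (pileup 30), which encodes a heparan sulfate 6-O-endosulfatase, at an end of Nol4l (27), 43907 bp from the melanocortin receptor gene Mc3r (27) and 21014 bp from the argininosuccinate synthase gene Ass1 (26). The first 3 lie in the far stretch, as do sites in Rspo4 and Taf4, which tie with Ass1 at 26. In shHMGB1 they lay in Slx4ip (21), in Klhl41 (20), a muscle gene, in Usp6nl (19) and 1370 bp from Pdhx (19), a subunit gene of pyruvate dehydrogenase. Sites nearest to Tmco5 and Dpm1 tie with Usp6nl and Pdhx at 19. A pileup under the other library's limit was not listed, so no ratio was formed.

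Heights at sites seen in both lists differed little. Summits were paired within 150 bp and kept at a combined pileup of at least 40, and the log2 ratio of heights (shHMGB1 over shCTRL) was taken relative to the median of all 28473 such pairs of the genome. The 2511 pairs of chromosome 2 had a median of -0.045 (-0.064 to -0.027). In the far stretch it was -0.12 (-0.15 to -0.085) over 999 pairs and in the first crowded stretch -0.21 (-0.29 to -0.12) over 224. The middle stood at 0.045 (0.021 to 0.080) and the front at -0.034 (-0.076 to 0.034). In both crowded stretches matched sites were thus slightly lower in shHMGB1, with intervals below 0.

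The shift kept its direction at equal height. Relative to pairs of the same decile of mean height, the far median was -0.11 (-0.13 to -0.084) and the first crowded median -0.13 (-0.23 to -0.075). From 151 Mb on, the median relative to all pairs was -0.15 (-0.18 to -0.11), with 439 of 652 pairs below 0. From 131 to 151 Mb it was -0.027 (-0.095 to 0.021).

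**Figure D5:**
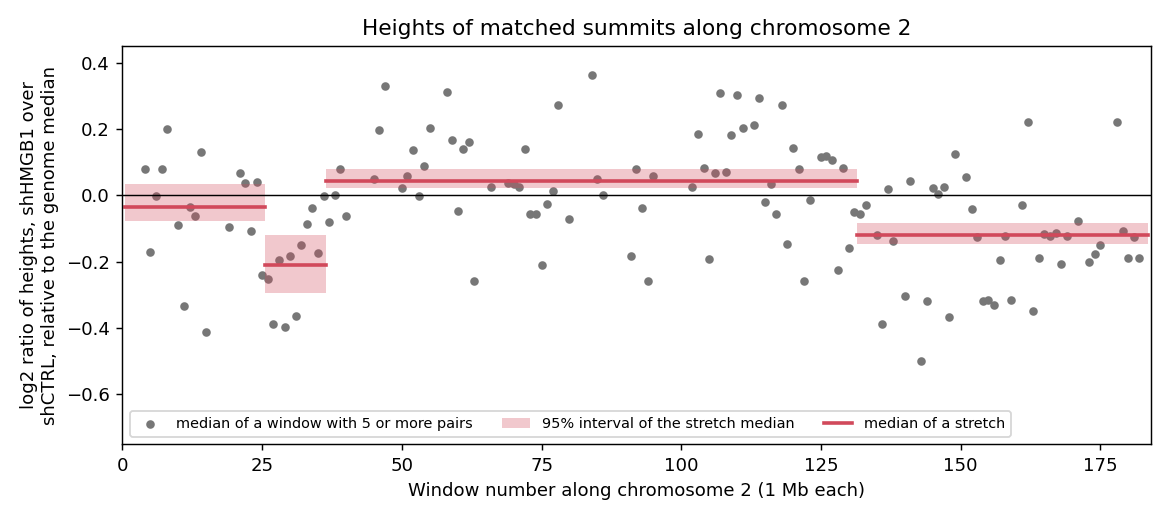
Median log2 ratio of heights of matched summits (shHMGB1 over shCTRL, relative to the genome median) per window with 5 or more pairs (points), and per stretch with its 95% interval (lines with shaded bands), against the window number along chromosome 2. The first crowded line lies at -0.21 and the far line at -0.12, with bands below 0.

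Large differences at matched sites were rare. On chromosome 2 5 pairs (0.199%) were at least 2-fold higher in shHMGB1, against 0.572 percent over the genome, and 43 (1.71%) at least 2-fold lower, against 1.68 percent. The far stretch held 27 of the 43, which is 2.70% of its 999 pairs, and none of the 5. With only pairs of a combined pileup of at least 60, and the ratio centred on the median of those, the counts were 0 and 9. The 5 higher pairs lay at 2 sites near Thnsl1 (14 and 27 fragments, and 17 and 34), in Myo3a (375 and 719), in Trim44 (11 and 31) and 62695 bp from Kif18a (18 and 36). The site in Myo3a, a myosin gene of sensory hair cells, is the tallest of them, with a log2 ratio of 1.02 (0.84 to 1.2). The lowest pairs lay 11663 bp from Apbb1ip (57 and 16), in Phyh (47 and 15), 293995 bp from Cdh26 (30 and 10), in Zmynd8 (30 and 10) and 32390 bp from Sp3 (138 and 48), and were named after their values were seen.

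The tallest summits of the chromosome stood in a gene-poor place. Over 1 Mb from the nearest coding gene, Lrrc4c, 4 peaks between chr2:98662158 and 98667374 reached pileups of 5300, 1857, 1271 and 489 fragments in shCTRL and 5706, 2020, 1272 and 504 in shHMGB1. They were the only peaks of their window in either list. Read filters are not given and repeats were not examined. Whether pileups this high, here or at the tall sites named next, mark open chromatin was therefore not tested. Other tall sites lay 16340 bp from Apbb1ip (587 and 331 fragments), 47018 and 60059 bp from Polr3k (512 and 386 in shCTRL) and in Myo3a. Among the tallest at gene ends were Chd6 (338 and 348), a remodeller gene whose promoter is printed above, Tasp1 (303 and 302) and, in shHMGB1, Tmx4 (336). The widest peaks covered 4180 bp at the Notch ligand gene Jag1 in shCTRL and 3818 bp at the thrombomodulin gene Thbd in shHMGB1.

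Gene ends were next classed by the libraries that listed an end peak, which is a peak up to 1 kb from either end of a coding gene. Both libraries listed one at 1032 of 1782 coding genes (57.9%), against 52.7 percent of 21883 coding genes in all. In shCTRL alone it was 129 (7.24%), against 5.6 percent, in shHMGB1 alone 26 (1.46%), against 1.71 percent, and 595 had none. In the far stretch 406 of 552 genes (73.6%, 69.7 to 77.2) had an end peak in both, and in the middle 389 of 874 (44.5%, 41.2 to 47.9). With olfactory receptors left out, 69.0% of the genes of the chromosome had an end peak in both.

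Of the 129 genes open in shCTRL alone 66 lay in the far stretch, with a median pileup of 14 fragments, near the lowest listed. With strong peaks alone in both lists the 129 became 68. Genes open in both had medians of 51 and 41 there. At strong end peaks the median height was 22.4 (20.8 to 24.7) times the expected pileup in shCTRL and 31.5 (28.5 to 36.8) in shHMGB1 in the far stretch. It was 15.8 (14.3 to 17.5) and 24.3 (22.6 to 26.1) in the middle, and 12.5 (11.8 to 13.6) and 16 (14.2 to 19) in the first crowded stretch. In the front it was 20.0 (17.5 to 24.7) and 29.7 (24.3 to 41.5), intervals that overlap those of the far stretch, while those of the middle lay below the far ones.

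At matched gene-end summits with a combined pileup of at least 40, 713 coding genes of the chromosome had a median log2 ratio of -0.12, with 18 intervals (2.52%) above 0 and 41 (5.75%) below. Over the 8491 such coding genes of the genome the median was -0.09, with 3.03 percent of intervals above 0 and 4.46 percent below. Each of the genes named next has a combined pileup of at least 60 and was chosen for its distance from the genome median, so their values are a description. The lowest was Ccn5 (gene 22403, 163820752 to 163833146), a matricellular growth regulator, with 53 fragments in shCTRL and 22 in shHMGB1 and a log2 ratio of -1.19 (-1.98 to -0.45). Itpripl1 followed with 49 and 22 fragments (-1.08), and H13, an imprinted signal peptide peptidase gene, with 50 and 25 (-0.92). Asb6 had 42 and 21 fragments, Pdrg1 75 and 38, Npepl1 88 and 45, the sulfide oxidation gene Sqor 60 and 32, and the fatty acid transporter gene Slc27a4 52 and 28. All 8 intervals lay below 0.

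The highest were Sapcd2 (29 and 47 fragments; 0.78, 0.079 to 1.5), a gene of spindle orientation, and Dync1i2 (54 and 87; 0.77, 0.26 to 1.29), which encodes an intermediate chain of the motor dynein. The mitochondrial carrier gene Slc25a12 had 28 and 44 fragments, Fam98b 33 and 49, and Phyh, of peroxisomal phytanic acid breakdown, 51 and 75. The BMP antagonist gene Grem1 had 29 and 42, the exchanger gene Slc9a8 60 and 85, and Fubp3 28 and 39. For Fam98b, Grem1 and Fubp3 the interval held 0. Of these 8 genes 1, Slc9a8, lay in the far stretch, beside 4 of the 8 lowest. Phyh thus stood higher in shHMGB1 at its end, while a site within the gene was among the lowest.

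Constitutively expressed genes, here mostly of translation, splicing and the proteasome, had end peaks in both libraries in 16 of 16 cases, led by Rps21 (138 and 130 fragments), Ywhab (104 and 105) and Psma7 (95 and 84). Their median log2 ratio was -0.097 over 15 matched genes, beside -0.12 over all 713. Among the 21 genes of cell cycle and repair, 20 had end peaks in both lists, with the tallest at the topoisomerase gene Top1 (248 and 230), the recombination repair gene Mcm8 (185 and 200) and the cell cycle regulator gene Mybl2 (149 and 132). No interval of these lists lay off 0 relative to all pairs, while relative to pairs of the same height those of Cdc25b (-0.55), Aurka (-0.41) and Prpf6 (-0.52) lay below it.

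Of 22 chromatin protein genes 20 had end peaks in both, led by Chd6, Mbd5 (163 and 170) and Ssrp1 (112 and 107), a subunit gene of the histone chaperone FACT. Adnp (58 and 35 fragments; -0.65, -1.30 to -0.019) was the 1 member whose interval lay off 0. Mllt10 and Brd3 had no end peak but a peak within 1 kb of the gene or inside it (91 and 86 fragments, and 73 and 55). An annotated end can belong to a rare transcript, so a main promoter can lie inside a gene.

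The HoxD cluster, in the middle stretch, was open in part. Of 10 genes Hoxd9 (43 and 34 fragments), Hoxd8 (35 and 21), Hoxd3 (24 and 18) and Hoxd13 (14 and 10) had end peaks in both. Hoxd1 (17) and Hoxd4 (12) had a peak in shCTRL alone, and Evx2, Hoxd12, Hoxd11 and Hoxd10 had no end peak. The open genes formed no unbroken run from the end of the cluster that holds Hoxd13. From the other end, each gene from Hoxd1 to Hoxd9 had an end peak in shCTRL, while in shHMGB1 Hoxd1 and Hoxd4 had none. The 7 regulators of development outside the cluster with a peak in shCTRL alone were again low, with pileups of 11 to 18 fragments, among them the LIM-homeodomain genes Lhx3 (12) and Lmx1b (11), Foxa2 (18) and Hnf4a (16).

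Of 31 developmental transcription factor genes both lists held end peaks at 18, shCTRL alone at 7 and neither at 6. Over all coding genes of the chromosome these shares were 57.9%, 7.24% and 33.4%. Snai1, which encodes a repressor of epithelial genes, led with 105 and 67 fragments and a log2 ratio of -0.57 (-1.03 to -0.11). The nuclear receptor gene Nr4a2 had 72 and 97 fragments (0.51, 0.055 to 0.97), and Meis2 57 and 40. Relative to sites of the same height Nr4a2 stood at 0.39 (-0.067 to 0.85), an interval that holds 0.

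Markers of cell identity bore on the label. Of 21 mesenchymal, matrix and adhesion genes 17 were open in both, among them Jag1 (124 and 103 fragments), Snai1 (105 and 67), Vim (61 and 70), the intermediate filament gene of mesenchymal cells, Cd44 (53 and 52) and Myl9 (39 and 20; -0.88, -1.74 to -0.070). Low pileups also counted as open, as at Zeb2 (11 and 11), Tgm2 (13 and 10) and Bmp2 (22 and 7). Mmp9 had a peak in shCTRL alone (13). Fap, Itga4 and Itgav had no end peak in either list. Fap (32 and 21) and Itgav (83 and 92) had peaks inside or within 1 kb of the gene, and Itga4 had none. Of 3 mesothelial genes Procr was open in both (28 and 25), the mesothelial regulator gene Wt1 had an end peak in shCTRL alone (12) but sites inside the gene in both (23 and 20), and Lrrn4 an end peak in shHMGB1 alone (9). These few genes do not settle the cell type.

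Genes of other cell types were open in part, with mostly low pileups at their ends. Of 5 leukocyte genes Rassf2 (80 and 60 fragments) and Spi1 (14 and 10) were open in both, Cd40 in shCTRL alone (12), and Il2ra and Cd93 at neither end. Inside or within 1 kb of the gene, Il2ra had peaks in both lists (36 and 15) and Cd93 in shCTRL alone (11). Of 14 neuronal genes 5 had end peaks in both lists, the tallest at the synaptic gene Snap25 (47 and 30), Grin1 (15) and Nnat (13) in shCTRL alone and 7 in neither. Among these 7, Scn2a had peaks of up to 152 and 167 fragments inside or within 1 kb of the gene, and 2 genes had none there in either list. All 5 neuronal genes open in both lay in the far stretch, where 73.6% of all coding genes were open in both. Of 4 epithelial genes none had an end peak in both, with Foxa2 (18) in shCTRL alone and Cdh26 (10) in shHMGB1 alone. Inside or within 1 kb of Cdh26 both lists had peaks, of up to 146 and 127 fragments, while Ehf and Elf5 had none. All 3 endothelial genes had end peaks in both lists, namely Thbd (97 and 90), Procr and Sox18 (16 and 9). Procr was also counted among the mesothelial genes above, so it does not set the cell types apart. Of 3 muscle genes Actc1 (17 and 13) was open in both. Neb (65 and 75) and Ttn (18 and 14) had no end peak but peaks inside or within 1 kb of the gene. These genes, too, do not settle the cell type.

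Inflammatory genes were mixed. Of 13 matched genes 7 had end peaks in both lists, with the tallest at Traf2 (87 and 75 fragments), the antiviral gene Samhd1 (48 and 34) and Gca (38 and 35), with Ptgs1 at 38 and 45. Traf1 and Cd40 (12 each) had a peak in shCTRL alone and the prostaglandin synthase gene Ptges (12) in shHMGB1 alone. The interleukin genes Il1a and Il1b had no peak in either library. No interval of a matched member lay off 0.

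Gene clusters of restricted use were open in part. Of 14 genes for whey acidic protein inhibitors, between 164 and 165 Mb, 4 were open in both, 4 in neither, and of the others 5 belonged to shCTRL and 1 to shHMGB1. Wfdc3 (37 and 18 fragments; -0.96, -1.86 to -0.11) was the tallest, and those of shCTRL alone included Wfdc10 (20), Wfdc8 and Wfdc6b (14 each) and Wfdc6a (13). Of 11 beta-defensin genes 3 were open in both, led by Defb20 (21 and 16), Defb21 (12) in shCTRL alone and Defb29 (7) and Defb25 (11) in shHMGB1 alone. Of 14 genes whose symbols begin as those of cystatins, 6 were open in both, 2 in shCTRL alone and 6 in neither, with Cstad in the first crowded stretch, Cstf3 in the middle and the others in the far stretch. Cst3 (169 and 154), the cystatin C gene, was open in both, as was Cstf3 (178 and 212; 0.33, 0.038 to 0.63), which is a polyadenylation factor gene and no cystatin. Its value relative to pairs of the same height was 0.21 (-0.084 to 0.51). Cstdc2 (59 and 57) and Cstf1 (128 and 99) were also open in both. Like Cstf3, Cstf1 is no cystatin gene, and its pileups equal those given above for Aurka. Cst7 (13) and Cst12 (11) had a peak in shCTRL alone. Of 5 imprinted genes H13, Mcts2 (26 and 22) and Blcap (43 and 41) were open in both, and Gnas (14) and Nnat (13) had an end peak in shCTRL alone. Inside Gnas both lists had peaks, of up to 60 and 48 fragments.

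Nucleosome-free regions, listed separately from peaks, were also crowded in the far stretch. Their numbers, 1436 and 1231, gave a ratio of 1.17 (1.08 to 1.26), beside 1.11 on the other chromosomes. In the far stretch they numbered 594 and 462, or 11.7 and 9.06 per Mb, a ratio of 1.29 (1.14 to 1.46). In the middle they numbered 580 and 530, a ratio of 1.09 (0.971 to 1.23). The far ratio of regions lay below the far ratio of 2.03 among peaks. Their median width was 156.5 and 157.5 bp in the far stretch and 159.5 and 165 bp in the middle.

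Of the nucleosome-free regions of the chromosome 97.8% in shCTRL and 99.4% in shHMGB1 overlapped a peak of their own library. Between libraries 40.4% (37.8 to 43.0) and 47.4% (44.5 to 50.2) of them overlapped, beside 39.6% and 43.8% over the genome. Their deposited mean occupancy, read as such from the layout, had a median of 0.0597 and 0.0536. With regions limited to a deposited upper bound under 0.1, the ratio between libraries was 0.985 (0.889 to 1.09), so the order of these counts rested on the limit.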

How the data were processed

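ATAC-seq peaks and nucleosome-free regions of 1 shCTRL and 1 shHMGB1 library of AB22 cells were analysed, with groups taken from the silencing label. Per the submitters' processing notes, reads were handled with Trimmomatic 0.32, BWA 0.7.5-r404, SAMtools, bedtools and MACS2 on mm10 (GRCm38). Not given in the sources used here are settings, read filters, read totals, any shift for the transposase and the caller of nucleosome-free regions. The authors deposited 1 list of peaks per library, with a score that is the whole part of 10 times the −log10 q. Each summit also has a deposited −log10 p, a −log10 q and a fold, the ratio of its pileup over the expected one. For nucleosome-free regions the deposited columns were read, from layout and ranges, as fractions of occupancy and as signal densities.

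Folds advanced as (pileup + 1)/(expected + 1), with 1 expected pileup per library, and all 180632 and 156812 summits came out whole within 0.001. Poisson tails of these values lay within 0.000127 of the −log10 p deposited by the authors, for p-values on this scale under 200. Heights are pileups over the expected pileup, which mixes depth and background. Merged intervals kept the highest summit, and 38 and 24 chromosome 2 summits without a position took the middle of the interval. Shares have Clopper-Pearson, pileups Poisson, ratios conditional binomial and medians order-statistic intervals. Fragments carry no molecular identifiers, so intervals cover counting error only.

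Gene names and ends came from the RefSeq table of GRCm38.p6, which gives no strand or exons, and promoters from its promoter table. All but 1 list gene matched, Tnfrsf6b. The values of 1 further list gene are not reported here. Members, stretches and gene lists were chosen with earlier results of these data known. Named genes were, leaving out placeholder symbols, up to 3 list members tallest in shCTRL among those open in both and up to 4 open in 1 library. Added to them were the 8 genes per direction farthest from the genome median with a combined pileup of at least 60, genes nearest to the 5 tallest summits and to the 4 tallest peaks per library without a counterpart, and windows with the most peaks or largest ratios. Further genes, named for having no peak or an interval off 0, were chosen after their values were seen. Scripts used Python 3.11.15, numpy 2.4.6, pandas 2.3.3, scipy 1.17.1 and matplotlib 3.10.9, and were tested on simulated lists.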

Additional observations from a re-analysis of the deposited data

How the results depend on the processing

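No paired analysis was possible because each group has 1 library. Of 72 alternative values 25 stayed within 1.5 times of the reported number (for counts) or within its interval (for other values). Another 43 moved further and 4 reversed, meaning that the value itself crossed 1 or 0. The intervals of the reversed ratios, 0.987 (0.936 to 1.04), 0.949 (0.888 to 1.01) and 0.985 (0.889 to 1.09), all held 1. The remaining reversal was the median log2 ratio without centring. Some alternatives were added after the data were seen. The ratio of peak numbers, 1.56, became 1.12 at a −log10 q of at least 5, 0.987 at 10 and 0.949 at 20, 1.39 with equal numbers of peaks per library, 2.38 with a pileup of at least 10 in both, 1.45 with every summit counted, 1.21 with 1 height limit for both and 1.02 without the windows of the far stretch. It thus rested on weak peaks and on the far stretch.

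The shared part of shCTRL peaks, 40.5%, became 70.6% and 85.8% at a −log10 q of 5 and 10, 43.9% with equal numbers, 33.9% with equal pileups, 48.3% with 1 height limit, 27.0% with an overlap of 50% of both intervals and 36.9% with summits within 150 bp. For shHMGB1 peaks, 63.6% became 78.6%, 84.7%, 61.8%, 79.5%, 59.7%, 42.1% and 57.2% in the same order. Windows with at least 1.5 times as many shCTRL peaks, 37, became 16, 1, 62 and 18 at a −log10 q of 5 and 10, equal pileups and 1 height limit. For shHMGB1, 6 such windows became 3, 1, 0 and 17 in that order, and 2 among windows with at least 50 peaks.

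The median log2 ratio of matched summits was 0.60 without centring, which holds the scale of the libraries, and -0.078 with no minimum pileup. The 5 pairs higher by 2-fold became 373 without centring, 0 at a combined pileup of 60 with the median of those pairs as centre, 23 with no minimum and 42 with every summit, and the 43 lower ones 1, 9, 120 and 108, and 19 at equal height. The 129 genes open in shCTRL alone became 68 at a −log10 q of 10, 206 with equal pileups and 83 over whole genes. The 26 in shHMGB1 alone became 10 with equal pileups and 39 with 1 height limit. The ratio of nucleosome-free regions became 0.985 under an upper bound of 0.1. The causes were not tested.

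Read totals were not given, so heights scale with an expected pileup in which depth and background cannot be told apart. A site missing from a list has a pileup under its limit and was not measured further.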
